A study of Mus musculus with 10 samples.

Results

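Endothelial genes were followed in the thoracic aorta of mice that lost Prdm16 in smooth muscle, as genes of a cell layer at which the knockout was not aimed. The members are 34 listed genes, matched by symbol to the 55426 genes of the expression table, and they were also searched for peaks of PRDM16 near their transcription start sites (TSSs). RNA-Seq covered whole thoracic aortas in 3 control libraries (Prdm16f/f) and 3 Prdm16SMKO libraries (Prdm16f/f, SMMHC-CreERT2), each called an aorta here, although the labels do not say that each came from a separate mouse. ChIP-Seq used primary wild-type vascular fibroblasts infected with lentivirus, either empty or coding for PRDM16 with a Flag tag, with 1 anti-Flag peak list each and no replicate. In the study's methods all mice were on a C57BL/6J background, and knockout was induced at 8 weeks of age with tamoxifen at 75 mg/kg per day for 5 days, followed by a washout of 2 weeks. Both groups carried the floxed allele, and whether these controls received tamoxifen is not given in the sources used here. The Cre is driven by the promoter of smooth muscle myosin heavy chain (Myh11), a gene of smooth muscle cells, so Prdm16 was to be kept in the endothelium. The fibroblasts of the ChIP-Seq are not endothelial cells, they were infected for 48 hours and selected with puromycin at 2 µg/mL for 1 week, and they expressed an introduced PRDM16.

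The endothelium is the cell layer between the blood and the vessel wall. Its cells hold to each other through VE-cadherin (Cdh5), PECAM1, and claudin-5 (Cldn5), and they read vascular endothelial growth factor (VEGF) and angiopoietins through the receptors Kdr, Flt1, Tek, and Tie1. Transcription factors of the ETS family such as ERG and FLI1, together with TAL1 and LMO2, keep the endothelial gene program on. Large arteries and capillaries use different subsets of it: connexins 37 and 40 (Gja4 and Gja5) join arterial endothelial cells, whereas GPIHBP1 carries lipoprotein lipase to the lumen of capillaries, many of which lie in the fat around the aorta.

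In these data, 1 of the 33 members that could be tested passed the test between the groups. This was Aqp1, the gene of the water channel aquaporin-1, which fell from 161.8 ± 15.9 TPM (transcript abundance scaled to the library total, SD, n = 3) in control to 99.8 ± 9.76 TPM (SD, n = 3) in Prdm16SMKO aortas. The endothelial markers Pecam1, Cdh5, Vwf, and Kdr were present in every aorta and overlapped between the groups. Aortas within a group differed more in the members than in most genes. Of the 33, 10 shared the same highest and the same lowest aorta. Another 9 shared the same 2 highest aortas, and 14 had neither pattern. A PRDM16 peak lay near the TSS of 6 of the 34 members, among which were all 4 transcription factors.

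A member was counted as having a promoter peak when a peak was centred at most 2 kb from any TSS among its curated RefSeq transcripts. By this measure 6 of 34 members (17.6%) had a promoter peak, beside 6818 of 26180 RefSeq genes (26.0%) and 5501 of 12551 genes that were both in RefSeq and tested in the aorta (43.8%). Thus the share among the members was below both backgrounds. In the vector library no member had a promoter peak, and 3 genes of 26180 had one. The 6 members were Erg, Fli1, Tal1, Lmo2, Flt1, and Podxl. Erg, Fli1, Tal1, and Lmo2 are all of the transcription factors in the list, Flt1 encodes VEGF receptor 1, and Podxl encodes podocalyxin, a sialomucin of the luminal surface. A promoter peak was thus found at 4 of 4 transcription factors and at 2 of the 30 other members. No share over all transcription factor genes was computed, so this split has no background and only describes the members.

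The strongest of these peaks was that of Flt1, with a fold enrichment of 8.54 over the local background, higher than 93.5% of the 11258 peaks. It spanned chr5:147725548-147726554 (GRCm38), and its centre lay 40 bp upstream of the TSS. The peak of Podxl at chr6:31563654-31564472 had its centre 126 bp upstream and an enrichment of 6.01-fold, and its −log10 q was 8.26. For the transcription factors the peaks lay somewhat further from the TSS or were weaker. The peak of Erg (chr16:95585396-95585852) had its centre 969 bp inside the gene from 1 of 3 annotated TSSs and an enrichment of 5.89-fold. Tal1 had 2 peaks, at chr4:115056479-115057967 with a fold enrichment of 5.34 and at chr4:115058382-115058612 with 4.22, with centres on either side of 1 of its TSSs, which lies within the former. Lmo2 had a peak at chr2:103970156-103970705, centred 143 bp past the TSS of a shorter transcript and enriched 4.96-fold. The weakest was that of Fli1 at chr9:32540177-32541006, centred 861 bp into the gene and enriched 3.66-fold, higher than 7.92% of all peaks. Over the 7 member peaks the median fold enrichment was 5.34, beside 5.27 over all peaks, so these peaks were of ordinary height.

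The sequences below are shown because the members with a promoter peak differed from the other members in the CpG content of their promoters. They are read from the RefSeq genome of build GRCm38, 5′ to 3′ on the strand of the gene, with each CpG dinucleotide in capitals. For Flt1 and Aqp1 they are the 100 bases upstream of the TSS (chr5:147726012-147726111, minus strand, within the peak, and chr6:55336199-55336298, plus strand, with no peak). For Erg and Tal1 they are the 101 bases around the summit of the peak of highest fold enrichment (chr16:95585650-95585750, minus strand, and chr4:115057176-115057276, plus strand). No annotated exon overlaps any of the 4, and those of Erg and Tal1 lie inside the annotated span of the gene. Of the 34 members, 20 were found in the RefSeq promoter table used here.
Flt1: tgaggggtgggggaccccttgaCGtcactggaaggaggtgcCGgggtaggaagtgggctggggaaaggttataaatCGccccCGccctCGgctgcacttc
Aqp1: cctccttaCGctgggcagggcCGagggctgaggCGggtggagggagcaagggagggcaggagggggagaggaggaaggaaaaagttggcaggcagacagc
Erg: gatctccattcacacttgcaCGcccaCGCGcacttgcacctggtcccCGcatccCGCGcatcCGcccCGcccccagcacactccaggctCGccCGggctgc
Tal1: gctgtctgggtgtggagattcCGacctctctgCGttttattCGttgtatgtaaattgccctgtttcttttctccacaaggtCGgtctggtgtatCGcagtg

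The stretch of Erg holds 10 CpG, that of Flt1 and that of Tal1 5 each, and that of Aqp1 3. The stretches of Erg and Tal1 lie at peak summits and those of Flt1 and Aqp1 upstream of a TSS, so the counts come from unlike windows. Over the 1000 bp around the TSS, the observed over expected ratio of CpG had a median of 0.337 in the 34 members, beside 0.538 over all RefSeq genes and 0.741 over the genes tested in the aorta. For a gene with several TSSs, the TSS of highest ratio was used, whereas a peak near any of its TSSs counted. The ratio and the peak of such a gene can thus belong to different TSSs. Counting as CpG-rich a window with a ratio of at least 0.6 and a GC content of at least 50%, 7 members were CpG-rich (20.6%), beside 43.9% of all genes. Endothelial promoters were thus mostly poor in CpG. Of the 7 CpG-rich members, 5 had a promoter peak, among them the transcription factors Fli1, Tal1, and Lmo2. The other 2, Egfl7 and Kdr, had none, whereas of the 27 members that were not CpG-rich only Erg had one (3.70%). The summit of the Erg peak lay 893 bp downstream of its nearest TSS, outside the 1000 bp window in which CpG was counted. Over all genes a promoter peak was found in 49.5% of CpG-rich and in 7.66% of other promoters. Over the genes tested in the aorta the shares were 52.5% and 20.6%. The member shares of 71.4% and 3.70% went in the same direction, and the latter was below both backgrounds. The CpG limits were chosen after the peaks had been seen.

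**Figure D1:**
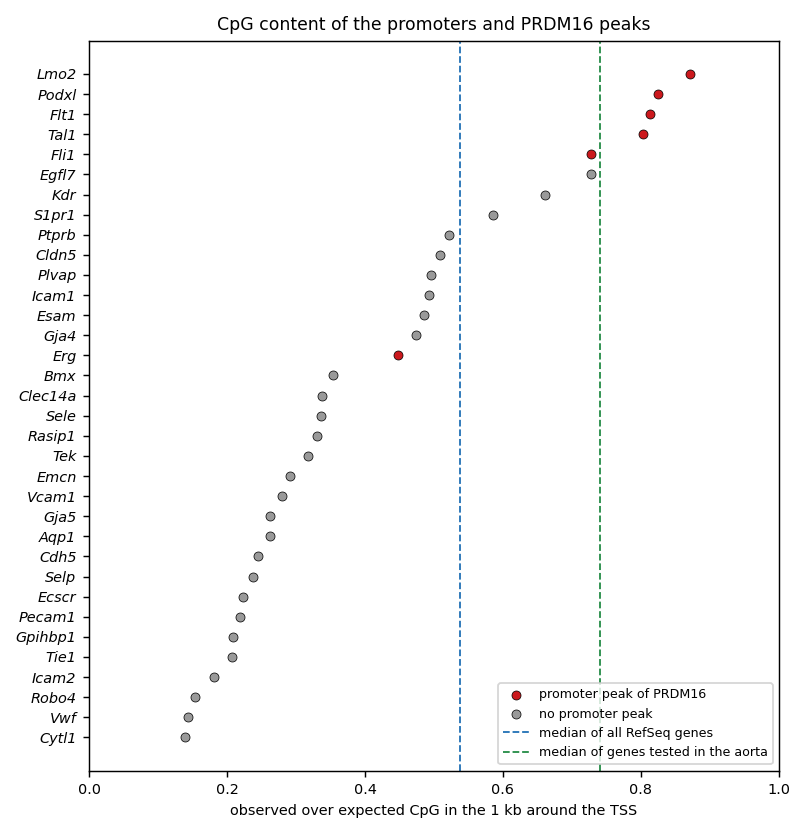
Observed over expected CpG (x axis, ratio without unit) in the 1000 bp around the TSS for each of the 34 members (y axis, sorted), with members that have a PRDM16 promoter peak in red and the others in grey. For a gene with several TSSs, the TSS of highest ratio is shown. The dashed lines are the medians of all RefSeq genes (0.538, blue) and of the genes tested in the aorta (0.741, green), and 5 of the 6 red points lie above 0.6, with Erg at 0.448.

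The 28 members without a promoter peak included the genes most used to mark endothelium. Their nearest peak lay at a median of 77.9 kb from the TSS, and beyond 50 kb in 20 of them. Pecam1, Cdh5, and Vwf had a peak inside the gene, which for Cdh5 was centred 20.6 kb downstream of the TSS (fold enrichment 5.63) and for Pecam1 55.9 kb downstream (fold enrichment 3.02). The nearest peaks to a TSS were those of Icam1, at 12.6 kb upstream, and Gja4, at 13.5 kb upstream. Kdr and Aqp1 were far from any peak, at 205.7 kb and 298.1 kb. An ETS motif, written as CCGGAAG or CAGGAAG on either strand, occurred in the 1000 bp around any TSS for 20 of 34 members (58.8%). The share was 48.6% over all genes and 55.2% over the genes tested in the aorta, so that of the members was near the latter.

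The targeted gene Prdm16 was 56.1, 47.6, and 40.3 TPM in the control and 23.3, 33.3, and 23.4 TPM in the Prdm16SMKO aortas (log2 fold change −0.85, limma adjusted p = 0.0725). The groups did not overlap, but the difference missed the threshold of 0.05, and whole aorta also holds cells other than smooth muscle. Over the 15668 genes tested, the log2 fold change had a median of −0.12, which was 0.00024 when the aortas were rescaled by median ratio. Differences below are on the log2(TPM + 0.1) scale. Smooth muscle genes of a fixed list summed to between 20790 and 24250 TPM in control and between 13890 and 17930 TPM in Prdm16SMKO aortas, without overlap, although 0 of 8 passed the test in limma (5 had an unadjusted p under 0.05). Of these 8 genes, Des was higher without overlap, and it passed after median ratio scaling (log2 fold change 0.56, limma adjusted p = 0.0421) and after quantile normalization (0.59, limma adjusted p = 0.0365).

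Of the 33 members tested, Aqp1 alone was called (3.03%, limma, adjusted p under 0.05), beside 168 of the 15668 genes tested (1.07%). Lower calls were made for 107 of all genes (0.683%) and higher calls for 61 (0.389%), and no member was called higher. At an unadjusted p under 0.05 there were 4 members (12.1%), beside 12.7% of all genes. In 5 members the Prdm16SMKO values all lay below the control values (15.2%, beside 14.9% of all genes), and in 1 member all lay above (3.03%, beside 4.08%). These shares were near those of the whole transcriptome. The median log2 fold change of the members was −0.0093, with 15 higher and 18 lower, beside 5032 higher and 10636 lower of all genes tested. On leaving out 1 aorta this median ran from −0.27, without Prdm16SMKO aorta 1, to 0.26, without Prdm16SMKO aorta 2. The split also depended on scaling, with 21 higher and 12 lower after median ratio scaling, and 19 and 14 after quantile normalization. The 34th member, Sele (E-selectin, which inflamed endothelium uses to catch leukocytes), was too low to test, at 0.21, 0.24, and 0.50 TPM in control and 0.11, 0.22, and 0.40 TPM in Prdm16SMKO aortas. In whole aorta, fewer endothelial cells and less RNA per endothelial cell cannot be told apart.

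**Figure D2:**
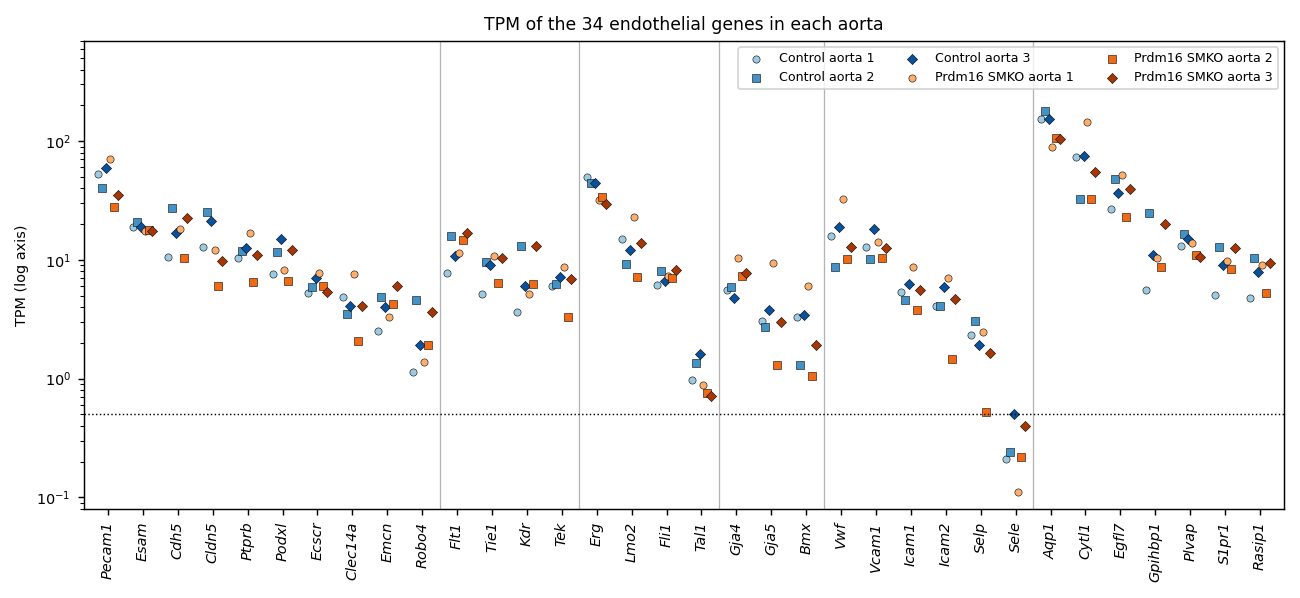
TPM (y axis, log scale) of each of the 34 members in the 6 aortas, grouped by role from left to right as junction and surface genes, receptors, transcription factors, gap junctions and arterial kinase, leukocyte adhesion, and the remaining genes. Blue symbols are control and orange symbols Prdm16SMKO aortas, each symbol is 1 aorta, and the dotted line is the filter at a mean of 0.5 TPM, under which Sele lies. In most members the 2 colors overlap, and in Aqp1 and Erg they do not.

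Aqp1 had the highest level of all members. It was 152, 180.1, and 153.2 TPM in the control aortas and 88.7, 107.1, and 103.7 TPM in the Prdm16SMKO aortas, so that all knockout values lay below all control values (log2 fold change −0.70, SE 0.12, 95% interval −0.97 to −0.42, limma adjusted p = 0.0374). Aquaporin-1 is carried by endothelial cells and also by red cells and smooth muscle. The list of red cell and platelet genes summed to between 533 and 2566 TPM in control and between 437.5 and 1487 TPM in Prdm16SMKO aortas, and their part and that of smooth muscle in the result were not tested. The call was lost on leaving out any 1 of the 6 aortas, with limma adjusted p between 0.0595 and 0.160, and log2 fold changes between −0.75 and −0.61. It was also lost after median ratio scaling, where the log2 fold change was −0.58 and the limma adjusted p was 0.0738, and over the 16 settings tried that p ran from 0.0319 to 0.961.

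Erg, which encodes the most abundant ETS factor of endothelium, was at 49.9, 44.3, and 44.2 TPM in control and 31.9, 33.8, and 29.4 TPM in Prdm16SMKO aortas. The groups did not overlap and the spread within each was small, but the difference missed the threshold (log2 fold change −0.54, SE 0.12, limma adjusted p = 0.0845). It passed after median ratio scaling (log2 fold change −0.42, limma adjusted p = 0.0244) and after quantile normalization (−0.40, limma adjusted p = 0.0273), and over the 16 settings tried that p ran from 0.0244 to 0.961. The residual SD of Erg on the log2 scale was 0.101, beside a median of 0.511 over the members. Erg was highest in control aorta 1 and lowest in Prdm16SMKO aorta 3. So were Acta2, Myh11, Tagln, Cnn1, Smtn, and Lmod1 of the smooth muscle list, but not Des and Myocd. The median over all tested genes of the log2 difference from the mean of the 6 aortas had the same ends. It was 0.213 in control aorta 1 and −0.170 in Prdm16SMKO aorta 3. The share of all genes with these ends was not computed. The part of cells other than endothelium in the result for Erg was not tested. Fli1, a relative of Erg, was at 6.13, 8.05, and 6.58 TPM in control and 7.34, 7.07, and 8.17 TPM in Prdm16SMKO aortas, with overlap (log2 fold change 0.13). The stem-cell leukemia factor Tal1 was near the low end of the table, at 0.97, 1.34, and 1.61 TPM in control and 0.88, 0.75, and 0.72 TPM in Prdm16SMKO aortas. The groups did not overlap, and the limma adjusted p was 0.502 (log2 fold change −0.65). Its partner Lmo2 overlapped, between 9.14 and 14.9 TPM in control and between 7.17 and 22.8 TPM in Prdm16SMKO aortas. All 4 factors had a promoter peak in fibroblasts, and none passed the test used here in the aorta. The study itself lists Erg, with this promoter peak, among its differentially expressed genes, as lower in the knockout. The 6 members with a promoter peak had a median log2 fold change of −0.11 (3 higher, 3 lower), and the 27 tested members without one had a median of −0.0093.

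Among the genes of junctions and the cell surface, 0 of 10 passed the test, 2 were higher and 8 lower. Of all genes tested, 10636 of 15668 were lower. Pecam1, the adhesion molecule also called CD31, was 53.1, 40.4, and 59.3 TPM in control and 70.4, 28.0, and 35.4 TPM in Prdm16SMKO aortas. Its highest and its lowest value were thus both in knockout aortas (log2 fold change −0.29, 95% interval −0.98 to 0.41, limma adjusted p = 0.732). Cdh5 was 10.6, 27.1, and 16.9 TPM in control and 18.2, 10.5, and 22.7 TPM in Prdm16SMKO aortas (log2 fold change −0.056, and 0.062 after median ratio scaling, limma adjusted p = 0.971). Cldn5, the claudin of tight junctions, had the largest difference of the members, at 12.8, 25.5, and 21.3 TPM in control and 12.0, 6.02, and 9.82 TPM in Prdm16SMKO aortas. The groups did not overlap, by a margin of less than 1 TPM between control aorta 1 and Prdm16SMKO aorta 1. The log2 fold change was −1.09 (95% interval −1.78 to −0.40), and the limma adjusted p was 0.169. Esam, an immunoglobulin-like adhesion molecule, varied least of the members, at 18.9, 21.0, and 18.7 TPM in control and 17.4, 17.8, and 17.6 TPM in Prdm16SMKO aortas (log2 fold change −0.15, limma adjusted p = 0.657). For the other surface genes Podxl, Emcn, Ptprb, Ecscr, Robo4, and Clec14a the groups overlapped, with log2 fold changes between −0.34 for Podxl and 0.24 for Emcn.

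**Figure D3:**
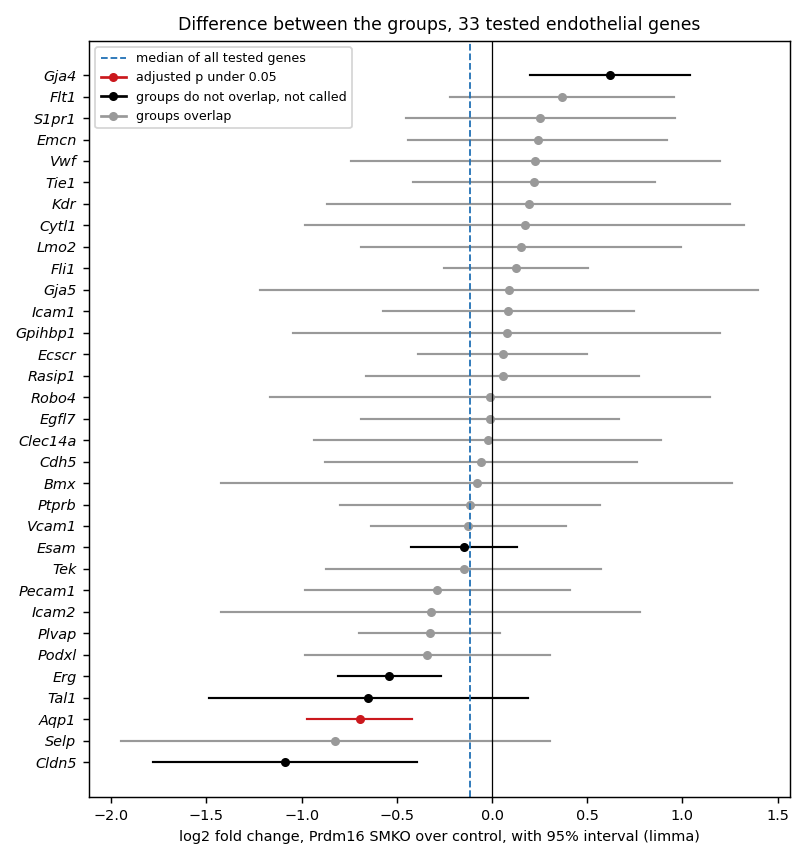
Log2 fold change of Prdm16SMKO over control aortas with its 95% interval from limma (x axis) for the 33 tested members (y axis, sorted). Aqp1 is in red as the called gene, members whose groups did not overlap are in black, the others are in grey, and the dashed line is the median of all tested genes at −0.12.

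The receptors for VEGF and angiopoietins did not differ by the test, with 0 of 4 called, 3 higher and 1 lower. Kdr, the main signaling receptor for VEGF, was 3.62, 13.0, and 5.99 TPM in control and 5.15, 6.31, and 13.0 TPM in Prdm16SMKO aortas (log2 fold change 0.19, 95% interval −0.86 to 1.25, limma adjusted p = 0.905). Its values were high in 1 aorta of each group. Flt1 had a log2 fold change of 0.37, and the angiopoietin receptor Tek and the related Tie1 had −0.15 and 0.22, all with overlap.

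Among the arterial genes, Gja4 (connexin 37) was the member with the largest positive difference. It was 5.60, 5.89, and 4.79 TPM in control and 10.3, 7.33, and 7.77 TPM in Prdm16SMKO aortas, without overlap (log2 fold change 0.62, 95% interval 0.20 to 1.04, limma adjusted p = 0.199). The call was missed in all 16 settings tried. Gja5 (connexin 40) and the arterial kinase Bmx showed no such order, since both were highest in Prdm16SMKO aorta 1 and lowest in Prdm16SMKO aorta 2, at 9.48 and 1.30 TPM for Gja5 and at 5.98 and 1.06 TPM for Bmx.

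Genes through which endothelium holds leukocytes and platelets gave 0 calls of 5 tested in limma, and none had an unadjusted p under 0.05. Vwf, the gene of von Willebrand factor, was 15.9, 8.78, and 19.1 TPM in control and 32.7, 10.1, and 12.8 TPM in Prdm16SMKO aortas (log2 fold change 0.23, limma adjusted p = 0.869). Selp (P-selectin, stored with von Willebrand factor) was 2.31, 3.08, and 1.91 TPM in control and 2.48, 0.52, and 1.64 TPM in Prdm16SMKO aortas. Its log2 fold change of −0.82 (limma adjusted p = 0.528) rested on Prdm16SMKO aorta 2, without which it was −0.23. Icam1, Icam2, and Vcam1, which bind leukocyte integrins, had log2 fold changes of 0.086, −0.32, and −0.12.

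In the remaining group, Aqp1 was called and the 6 others were not. Cytl1, a small secreted protein, was the member with the second highest mean, and it had the widest spread of this group, at 73.8, 32.4, and 75.5 TPM in control and 143.6, 32.4, and 55.3 TPM in Prdm16SMKO aortas (log2 fold change 0.17, limma adjusted p = 0.928). Control aorta 2 and Prdm16SMKO aorta 2 were alike in it. Plvap, which forms the diaphragms of fenestrae and caveolae, had a log2 fold change of −0.33 (limma adjusted p = 0.449), and Egfl7, Gpihbp1, Rasip1, and the sphingosine-1-phosphate receptor gene S1pr1 lay between −0.0093 and 0.25.

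The spread between aortas of the same group was large for the members. The residual SD on the log2 scale had a median of 0.511 over the 33 members, beside 0.241 over all tested genes, and the highest of the 6 values was a median of 2.51 times the lowest, beside 1.62 times. Prdm16SMKO aortas 1 and 2 stood at opposite ends. This pattern and the next one are set by the named aortas only, not by the order of all 6. Both were chosen after the member values were seen, so their shares beside all genes only describe the members. Of the 33 members, 15 were highest in Prdm16SMKO aorta 1 (45.5%, beside 8.24% of all genes) and 14 were lowest in Prdm16SMKO aorta 2 (42.4%, beside 8.69%). Both held for 10 members (30.3%, beside 1.37%), namely Pecam1, Clec14a, Ptprb, Tek, Lmo2, Gja5, Bmx, Icam1, Icam2, and Egfl7. Summed over the members the level was 680.3 TPM in Prdm16SMKO aorta 1, 400.8 TPM in Prdm16SMKO aorta 2, and 527.9 TPM in Prdm16SMKO aorta 3, against 555.3 to 630.1 TPM in the controls. The direction of the list rested on these aortas: 24 of 33 members were higher than control without Prdm16SMKO aorta 2, and 9 of 33 without Prdm16SMKO aorta 1.

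The other pattern put control aorta 2 and Prdm16SMKO aorta 3 on top. It held for 9 members (27.3%, beside 4.49% of all genes), namely Cdh5, Emcn, Robo4, Kdr, Flt1, Fli1, Gpihbp1, Rasip1, and S1pr1, and 10 members were lowest in control aorta 1 (30.3%, beside 6.10%). Gpihbp1 was 5.62, 24.7, and 11.1 TPM in control and 10.3, 8.74, and 20.2 TPM in Prdm16SMKO aortas. The ratio of Kdr to Pecam1 was 0.0682, 0.321, and 0.101 in control and 0.0732, 0.225, and 0.368 in Prdm16SMKO aortas. All 8 genes of a list for capillary and fatty-acid-handling endothelium had the same 2 aortas on top, among them Cd36, Lpl, and Fabp4, and so had 5 of 6 adipocyte genes (Ucp1, Adipoq, Plin1, Cidea, and Pparg). Fabp4, Lpl, and Cd36 are also made by adipocytes. The adipocyte list summed to 115.9, 556.4, and 265.1 TPM in control and 194.1, 137.7, and 447.3 TPM in Prdm16SMKO aortas, and the capillary list to 378.1, 1409, and 662.7 TPM and to 502.6, 446.2, and 988.1 TPM. Their part in the levels of the 9 members was not tested.

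These patterns were not particular to the listed members. Of 24 other endothelial genes, 6 were highest in Prdm16SMKO aorta 1 and lowest in Prdm16SMKO aorta 2, among them Nos3, Sox17, and Ramp2, and 8 had control aorta 2 and Prdm16SMKO aorta 3 on top, among them Dll4 and Adgrl4. Of the 8 macrophage genes, 4 had the same highest and lowest aorta as Pecam1. The sums of the list were 94.7 TPM in Prdm16SMKO aorta 1 and 55.5 TPM in Prdm16SMKO aorta 2.

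**Figure D4:**
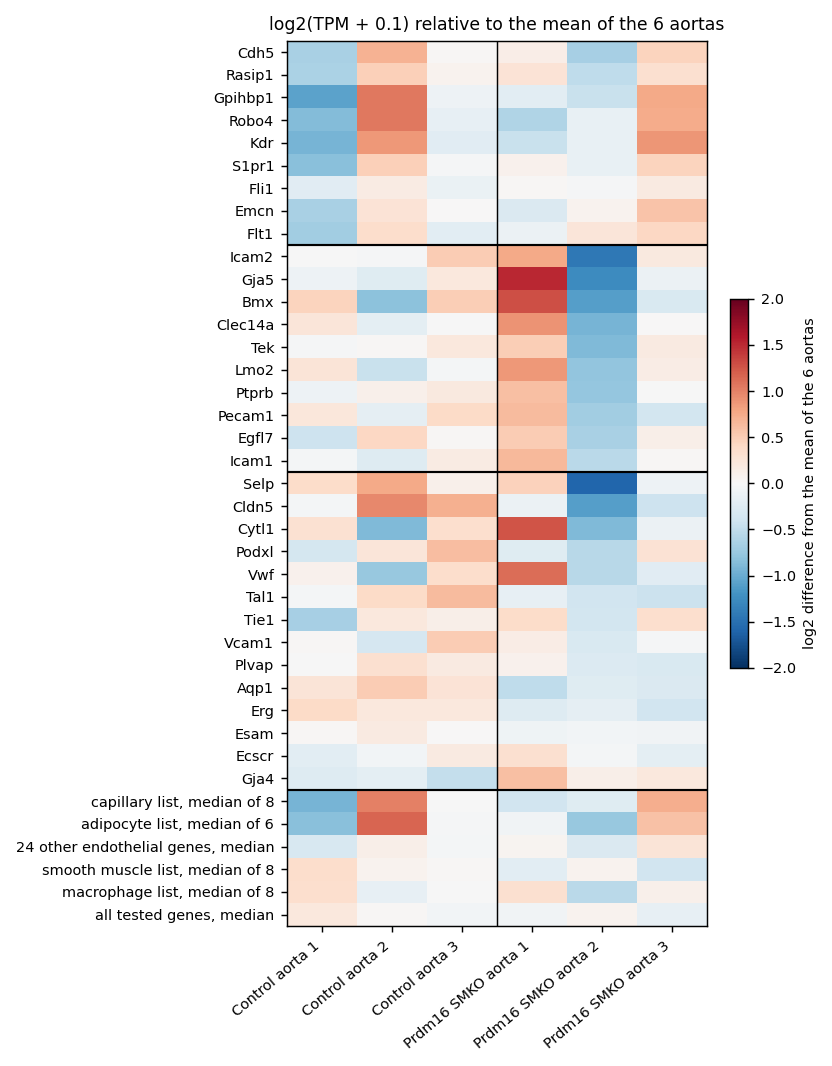
Each row is a tested member and each column an aorta, with color giving the log2(TPM + 0.1) difference from the mean of the 6 aortas (red higher, blue lower). The top block holds the 9 members highest in control aorta 2 and Prdm16SMKO aorta 3, the next block the 10 members highest in Prdm16SMKO aorta 1 and lowest in Prdm16SMKO aorta 2, the third block the other 14, and the bottom rows give medians of the capillary, adipocyte, other endothelial, smooth muscle, and macrophage lists and of all tested genes.

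Outside the members, 0 of the 24 other endothelial genes passed the test in limma (3 had an unadjusted p under 0.05), with 13 higher, 11 lower, and a median log2 fold change of 0.012. The largest differences were those of Sox7 (0.74, limma adjusted p = 0.387), Calcrl (0.56, limma adjusted p = 0.168), Acvrl1 (−0.52, limma adjusted p = 0.192), and Sox18 (0.48, limma adjusted p = 0.538). Calcrl and Acvrl1 encode receptors for adrenomedullin and for bone morphogenetic proteins, and Sox7 encodes a transcription factor of the SOX family. Without overlap between the groups were 2 higher genes, Sox7 and Calcrl (8.33%, beside 4.08% of all genes). So were 2 lower genes, Acvrl1 and Efnb2 (8.33%, beside 14.9% of all genes). Efnb2 had a log2 fold change of −0.30 (limma adjusted p = 0.505).

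The ligands of the member receptors also gave 0 calls of 9 in limma, with 3 at an unadjusted p under 0.05. Pgf, the gene of placental growth factor and a ligand of FLT1, was 2.09, 2.31, and 2.84 TPM in control and 4.63, 9.49, and 6.02 TPM in Prdm16SMKO aortas, without overlap (log2 fold change 1.39, SE 0.28, limma adjusted p = 0.0578). It passed in 5 of 16 settings, in which that p ran from 0.0395 to 0.722. Angpt2, whose product binds TEK, was 36.6, 28.3, and 29.2 TPM in control and 50.1, 66.5, and 44.5 TPM in Prdm16SMKO aortas, again without overlap (log2 fold change 0.76, limma adjusted p = 0.0895). Angpt2 passed in 2 of 16 settings, after median ratio scaling (limma adjusted p = 0.00941) and after quantile normalization (limma adjusted p = 0.00979), and over the settings that p reached 0.961. Angpt4 had a log2 fold change of −1.14 (limma adjusted p = 0.230), and the study itself lists it as a differentially expressed gene, lower in the knockout. Both Pgf and Angpt2 were highest in Prdm16SMKO aorta 2, the aorta with the lowest sum over the members. Vegfa was 27.3, 55.5, and 36.3 TPM in control and 36.1, 28.6, and 48.7 TPM in Prdm16SMKO aortas (log2 fold change −0.043), and had control aorta 2 and Prdm16SMKO aorta 3 on top like Kdr.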

How the data were processed

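RNA was measured in 3 control and 3 Prdm16SMKO thoracic aortas, and PRDM16-Flag and vector ChIP-Seq in 1 library each, grouped by the titles of the samples. The authors deposited gene TPM, 1 column per aorta (0 columns were left unmapped). The submitters' processing notes name cutadapt 2.3, STAR 2.7.8a, RSEM 1.3.3, and Bowtie2 2.3.4.1 with builds GRCm38 and mm10, and the annotation is not given in the sources used here. The authors' methods name MACS2 with a q limit of 0.01 and a human genome size preset, and the control library is not stated. The PRDM16 list also holds a peak beyond that limit, inside Pecam1 (−log10 q 1.54). Their deposited lists hold a fold enrichment (a ratio over local background), −log10 p and −log10 q, and a score that was not used. The IgG libraries were not analysed here.

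TPM keep no depth, so depth per aorta is unknown, no counting interval was computed, and the number of aortas limits the precision. TPM are scaled to transcript length, so levels can be set between genes. limma 3.58.1 (R 4.3.3) was run on log2(TPM + 0.1) with eBayes fitted to the trend of the variance on the mean and no covariates. The 15668 genes whose mean over the 6 aortas reached 0.5 TPM were tested, with Benjamini-Hochberg adjustment over all of them. The script was tested on simulated data. Nothing in the labels says that the libraries of a group came from separate mice, so p-values measure the spread between these libraries. An exact permutation test of 3 against 3 cannot go below p = 0.1 and was not used. Replicate numbers did not pair the aortas (correlations of deviations −0.0246, −0.07, and −0.00896).

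Values in every aorta are given for called members, members whose groups did not overlap, Pecam1, Cdh5, Vwf, and Kdr, the 3 of highest mean TPM, and the 5 with the largest log2 fold change. Fli1, Gpihbp1, Sele, and Vegfa were added after their values were seen. Of other lists, called genes and up to 4 of largest change are named, and further genes of these lists were named after their values were seen. Members and gene lists were chosen with earlier results of these data known. Other settings tried were pseudocounts, filters, scalings, no trend, a replicate block, leaving out each aorta, peak windows, and stricter q. Python 3.11.15, pandas 2.3.3, numpy 2.4.6, and matplotlib 3.10.9 were used.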

Additional observations from a re-analysis of the deposited data

How the results depend on the processing

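Beside 168 genes called in all, 411 were called after median ratio scaling (196 higher, 215 lower, against 61 and 107), 392 after quantile normalization (189 higher, 203 lower), 110 with no filter (40 higher, 70 lower), 91 after centring on other endothelial genes (42 higher, 49 lower), 48 with no trend (24 higher, 24 lower), and 91 to 141 on leaving out 1 aorta. Members called were 0 with no filter, after centring, and with no trend, 0 to 0 on leaving out 1 aorta, and 1 after median ratio and quantile scaling, where Erg passed and Aqp1 did not. Prdm16 passed after median ratio scaling (−0.73, limma adjusted p = 0.0232), after quantile normalization (−0.72, 0.0335), and without Prdm16SMKO replicate 2, with a range of −1.02 to −0.73 on leaving out 1 aorta. The sign turned for Cdh5 (0.062 after median ratio scaling, 0.063 after quantile normalization, −0.39 to 0.28 on leaving out 1 aorta), for Cytl1 (−0.00018 after centring, −0.42 to 0.66), for Vwf (−0.28 to 0.56), and for Kdr (−0.23 to 0.68). The cause was not tested in any of these. In 12 of 33 members the sign held in all 6 fits that left out 1 aorta. The member median of −0.0093 ranged from −0.27 to 0.26 on leaving out 1 aorta and from −0.18 to 0.10 over the other settings. With the replicate number as a block, 184 genes and 1 member were called, Pgf (limma adjusted p = 0.0423) and Rgs5 (limma adjusted p = 0.0179) passed, and the block changed no other call named here. The numbers of the aortas are shared labels only. Members with a promoter peak stayed at 6 for windows of 1 kb and 5 kb and fell to 5, without Fli1, at a q of at most 0.001 or 1e-05.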

Other observations

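Lymphatic endothelium, which is kin to blood endothelium but carries its own receptors, was low in these aortas. Prox1, the factor that sets lymphatic identity, lay between 0.03 and 0.28 TPM and was not tested, as were Reln and Stab2. Of the 4 lymphatic genes tested, leaving out Ccl21a, 1 was called (25%, beside 1.07% of all genes) and all 4 were lower. Of all genes tested, 10636 of 15668 were lower. The called gene was Pdpn (podoplanin), at 7.76, 6.46, and 5.12 TPM in control and 1.41, 1.12, and 1.09 TPM in Prdm16SMKO aortas (log2 fold change −2.31, SE 0.24, limma adjusted p = 0.00394), and it was called in all 16 settings tried. Podoplanin is also carried by fibroblasts and other cells outside lymphatics. Lyve1, Mmrn1, and the VEGF receptor gene Flt4 overlapped between the groups. The entries of Ccl21a had log2 fold changes of −1.16 and −3.39 and were not called (limma adjusted p = 0.25 and 0.36).

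Rgs5, a gene of pericytes and arterial smooth muscle, was 377.4, 348.1, and 298.5 TPM in control and 629.6, 763.2, and 493.8 TPM in Prdm16SMKO aortas, without overlap (log2 fold change 0.87, limma adjusted p = 0.0516). Rgs5 passed after median ratio scaling (limma adjusted p = 0.00636), after quantile normalization (limma adjusted p = 0.00795), with a mean TPM of at least 1 (limma adjusted p = 0.0408), and without Prdm16SMKO aorta 3 (limma adjusted p = 0.0198). In the pericyte list 0 of 6 genes passed the test in limma, and 1 had an unadjusted p under 0.05. The study itself lists Notch3, a gene of this list, as differentially expressed and lower in the knockout. Here Notch3 overlapped between the groups (log2 fold change −0.41, limma adjusted p = 0.528). The order of Rgs5 among the Prdm16SMKO aortas, with aorta 2 on top, was that of Angpt2. Of the leukocyte partners of the adhesion members, 0 of 4 tested passed in limma and none had an unadjusted p under 0.05. Of the fibroblast, macrophage, adipocyte, red cell and platelet, skeletal muscle, and lymphocyte lists, 0 genes passed the test in limma, with 2 fibroblast genes and none of the others at an unadjusted p under 0.05.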
